A study of Sus scrofa with 4 samples.

Results

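miR-221 and miR-222 are a pair of microRNAs (miRNAs), short RNAs that repress messenger RNAs, and both were measured here in exosomes of umbilical cord blood of newborn Yorkshire piglets. The members were the rows of the 4 deposited tables whose name, without the species prefix and without the suffix that describes changed ends, was miR-221 or miR-222 on either arm of the hairpin. That gave 3 of 664 rows, 2 for miR-221 and 1 for miR-222. Another 2 rows, named miR-222a after platypus, fell outside the rule and were kept apart.

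Exosomes, small vesicles that carry RNA between cells, had been pelleted by ultracentrifugation from plasma of blood drawn at birth into EDTA. Fetal blood leaves for the placenta through the umbilical artery and comes back oxygenated through the umbilical vein. Piglets with intrauterine growth restriction (IUGR) were set against normal littermates, with no other treatment named, and each library was made from a pool of 3 piglets. The 4 libraries were those of the vein (normal, IUGR) and of the artery (normal, IUGR). This is also the order of any 4 values given in a row without names. Whether the vein and artery libraries of a condition came from the same piglets is not stated. There was thus 1 library for each condition in each vessel and no replicate check of IUGR against normal.

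miR-221 and miR-222 are transcribed together from the X chromosome and read out the same seed, the stretch at bases 2 to 8 that pairs with target messenger RNAs. In human and rodent cells they repress the cell cycle inhibitor CDKN1B (p27) and the receptor KIT. They are known in blood vessels for restraining endothelial growth and tube formation and for promoting growth of smooth muscle. Both are also made in many other cells, blood precursors among them, so their presence in plasma names no single source.

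The mature sequences show how alike the pair is and are given as the tables print them, 5′ to 3′ in DNA letters, with bases 2 to 8 in capitals.
ssc-miR-221-3p: aGCTACATtgtctgctgggttt
ssc-miR-222_R-1: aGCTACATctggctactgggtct
ssc-miR-221-5p_R-5: aCCTGGCAtacaatgtagatt
The first 8 bases of miR-221-3p and miR-222 were identical, and the seed GCTACAT pairs with ATGTAGC in a target. Over the whole length the pair lay 4 edits apart, with lengths of 22 and 23 bases and a GC content of 45.5 and 52.2%. Of the 664 rows, these 2 alone had GCTACAT at bases 2 to 8. The third sequence is the opposite arm of the miR-221 hairpin and has another seed, CCTGGCA. The suffixes _R-1 and _R-5 are the tables' own marks. The miR-222 row names no arm, and its seed is that of miR-221-3p. In RefSeq's gene table of Sscrofa 11.1, MIR221 and MIR222 stand next to each other on chromosome X with 0 listed genes between them. The submitters' processing notes name Sscrofa 10.2, so no positions are given.

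The tables summed to 40691 and 16218 reads for the normal and IUGR vein, and to 13749 and 20144 for the normal and IUGR artery. Rows named PC-, predicted candidates, took 13.2, 55.8, 45.3 and 38.8% of them. Levels are therefore given as a share of reads outside these rows, of which there were 35317, 7175, 7527 and 12327. The libraries differed widely in other miRNAs. The red-cell miRNA miR-451 took 35.8, 43.2, 32.0 and 8.66% of these reads, the last in IUGR artery. The liver miRNA miR-122 took 0.127, 1.94, 1.78 and 21.8%.

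Of miR-221 there were 76 reads in the vein library of normal piglets and 12 in that of IUGR piglets, and 16 and 151 in the corresponding artery libraries. As a share of reads outside PC- rows this was 0.215% in normal vein, with an exact (Clopper-Pearson) 95% binomial interval of 0.170 to 0.269%. IUGR vein stood at 0.167% (0.0864 to 0.292%). Normal artery stood at 0.213% (0.122 to 0.345%) and IUGR artery at 1.23% (1.04 to 1.44%). IUGR artery was the high library, and the intervals of the other 3 overlapped. All intervals describe counting error alone, because the labels name no molecular identifiers and amplified reads can stem from 1 molecule.

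Of miR-222 there were 8 and 10 reads in the normal and IUGR vein, and 12 and 121 in the normal and IUGR artery. Its share was 0.0227% (0.00980 to 0.0446%) in normal vein and 0.139% (0.0669 to 0.256%) in IUGR vein. The artery libraries stood at 0.159% (0.0824 to 0.278%) for normal and 0.982% (0.815 to 1.17%) for IUGR piglets. Normal vein was thus the low library, IUGR artery the high one, and the other 2 overlapped. Normal vein had the most reads of the 4 libraries, and at the share of miR-222 in normal artery it would have held 56.3 reads rather than 8.

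**Figure D1:**
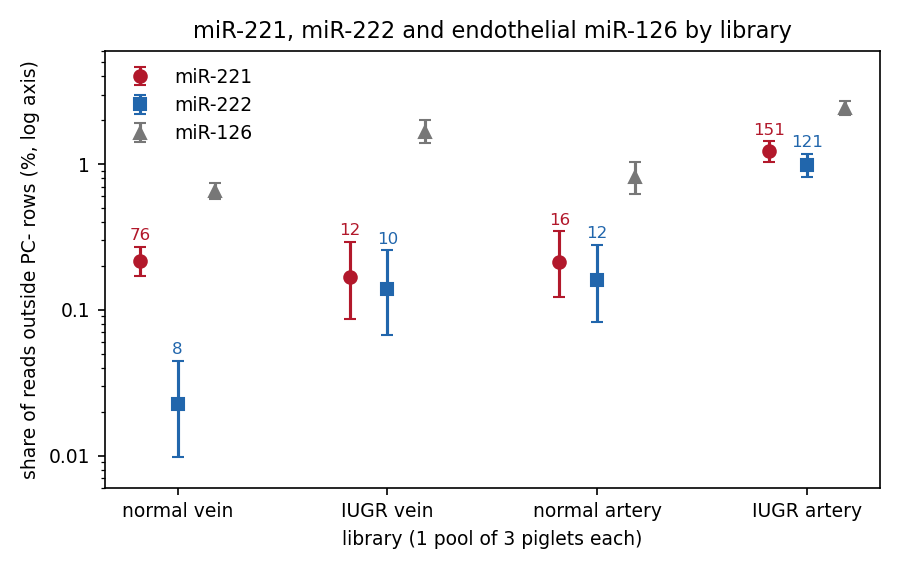
Share of reads outside PC- rows, in percent on a log axis, of miR-221, miR-222 and the endothelial miRNA miR-126 in each of the 4 libraries; bars are exact 95% binomial intervals and cover counting error only, and the numbers above the bars are reads. miR-222 lies at 0.0227% in normal vein, and both members lie highest in IUGR artery, at 1.23 and 0.982%.

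By abundance, miR-221 stood in the vein at rank 46 of 283 miRNA names with reads (normal) and 64 of 203 (IUGR), and in the artery at 56 of 229 (normal) and 18 of 179 (IUGR). miR-222 stood at rank 130, 67, 69 and 22 in the same libraries. The pair together made up 0.238, 0.307, 0.372 and 2.21% of reads outside PC- rows. In plasma vesicles, fewer contributing cells and less of a miRNA per cell cannot be told apart.

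Nearly all miR-221 reads came from the 3p arm. The 5p arm had 1 read in normal vein and 3 in IUGR artery, and 0 in IUGR vein and normal artery. A count of 0 allows a share of up to 0.0418% in IUGR vein and 0.0399% in normal artery, so a difference of the 5p arm between libraries was not detectable at this depth. The authors' deposit lists the 5p row as different between IUGR and normal artery and between IUGR vein and IUGR artery. Both listings rest on 3 reads against 0.

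The ratio of the members to each other needs no scaling between libraries. miR-221 made up 90.5% of the pair's reads in normal vein, with an exact 95% binomial interval of 82.1 to 95.8%. The other libraries lay close together, IUGR vein at 54.5% (32.2 to 75.6%), the normal artery at 57.1% (37.2 to 75.5%) and that of IUGR at 55.5% (49.4 to 61.5%). Put as a ratio, there were 9.50 miR-221 reads per miR-222 read in normal vein and 1.20, 1.33 and 1.25 in the other 3 libraries. The interval of normal vein lay above those of the others.

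The odds of miR-221 against miR-222 were 7.70 times as high in normal vein as in IUGR vein, with a conditional exact 95% interval of 2.25 to 27.8. Against normal artery the odds ratio was 6.96 (2.22 to 23.3), and against IUGR artery 7.58 (3.48 to 18.9). Among the other 3 libraries the odds ratios ran from 0.902 to 1.07, and each interval included 1. The 22 reads of the pair in IUGR vein and 28 in normal artery leave those intervals wide, down to 0.254 and up to 3.21. These intervals compare libraries and not conditions, since no condition has a second library of the same vessel.

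**Figure D2:**
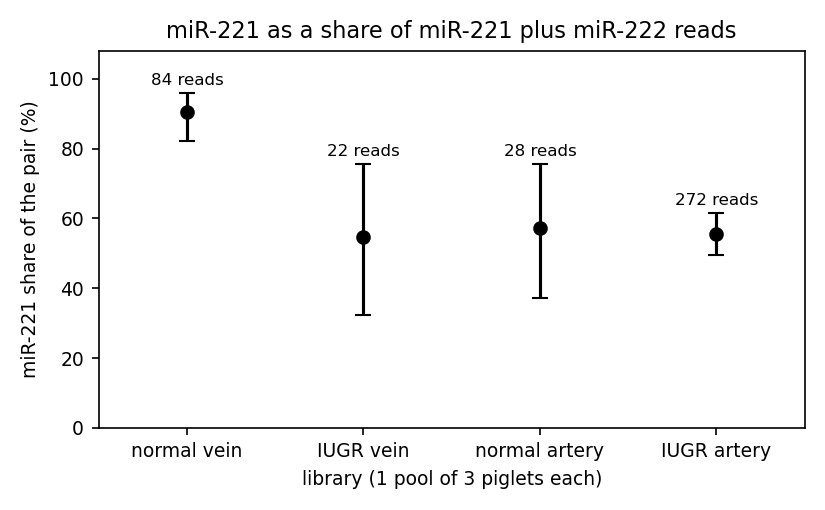
miR-221 as a percentage of the summed miR-221 and miR-222 reads in each library; bars are exact 95% binomial intervals covering counting error only, and the labels give the reads behind each point. Normal vein lies at 90.5%, and the other 3 libraries lie between 54.5 and 57.1%.

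To see how other miRNAs behave, all pairs of miRNA names with the same bases 2 to 8, different sequences and at least 5 reads in every library were listed. This description was chosen after the values of miR-221 and miR-222 had been seen, and the 47 pairs share members, so no test was made. Over the 4 libraries the log2 ratio within the pair of miR-221 and miR-222 ranged over 2.98, the 15th widest, against a median of 2.16 and a highest value of 7.22. With normal vein left out the range was 0.15, the narrowest of the 47, against a median of 1.61. Normal vein lay 2.93 from the median of the other 3, the third largest distance, against a median of 0.70. Both ranks are partly set by the choice of library, since normal vein is the 1 that stood apart for miR-221 and miR-222. Other pairs kept the library that stood apart for them. The range of 0.15 is also far narrower than counting error, as the odds ratio of IUGR vein to normal artery had an interval of 0.254 to 3.21. The pairs with larger distances were miR-363 with miR-92a, at 3.46 in size, and miR-25 with miR-363, at 3.46 as well. The closest in range over those 3 libraries was miR-25 with miR-92a, at 0.29, and its distance for normal vein was 0.01 in size.

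**Figure D3:**
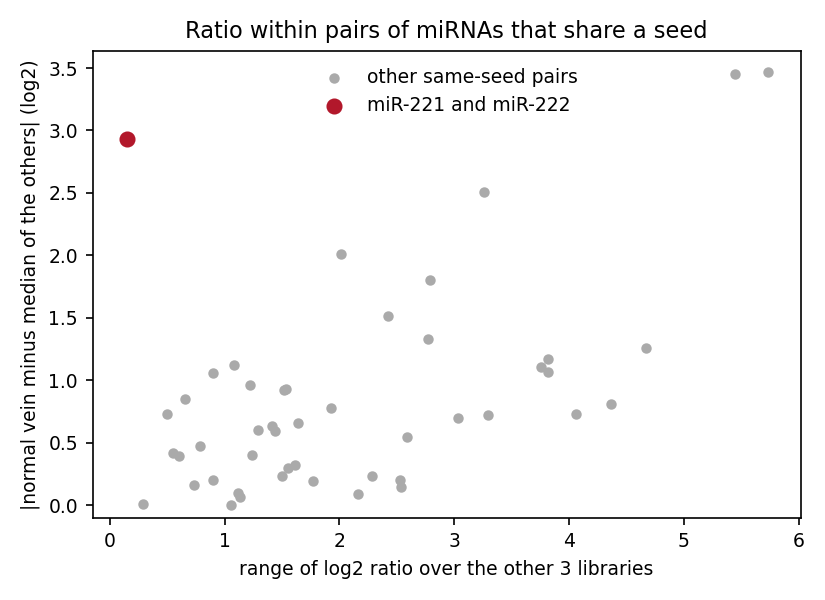
Each point is 1 of 47 pairs of miRNAs that share bases 2 to 8; the horizontal axis is the range of the log2 ratio within the pair over IUGR vein, normal artery and IUGR artery, and the vertical axis the distance of normal vein from their median, in log2 units. miR-221 with miR-222 (red) lies at 0.15 and 2.93.

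The first comparison set IUGR against normal in the vein. miR-222 was 6.15-fold higher in IUGR vein, at 0.139 against 0.0227%, a log2 ratio of 2.62 with a conditional exact 95% interval of 1.13 to 4.17. For miR-221 the shares were 0.167 and 0.215%, a log2 ratio of -0.36 with an interval of -1.38 to 0.52 that includes 0. Of 132 names with at least 10 reads in these 2 libraries, 25.0% were higher in IUGR by 2-fold or more and 19.7% lower by 2-fold or more, and the median log2 ratio was 0.18. Of these names, 5 had a higher ratio than miR-222 and 91 a higher one than miR-221. miR-222 rests on 10 against 8 reads, which the width of its interval reflects.

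On the normalized values the authors deposited, the miR-221 3p row had 56.4 reads in IUGR vein and 142.7 in normal vein, and the miR-222 row 47.0 and 15.2. The authors' deposited table lists both rows among those that differ in vein. On those values the log2 ratio of miR-221 was -1.36, while the median of all names was -0.81. miR-221 stood 0.55 below that median, a distance that 1 factor per library cannot change.

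In the artery both members were higher in IUGR, by similar amounts. miR-221 was 5.76-fold higher, at 1.23 against 0.213%, a log2 ratio of 2.53 with an interval of 1.78 to 3.37. miR-222 was 6.16-fold higher, at 0.982 against 0.159%, a log2 ratio of 2.62 with an interval of 1.77 to 3.61. These libraries differed in most names: of 112, 39.3% were higher in IUGR by 2-fold or more and 38.4% lower, and the median was 0.18. Read against that share, a 2-fold difference of the members is no result particular to them. There were 25 names with a higher ratio than miR-221 and 21 with a higher one than miR-222. Both the miR-221 3p row and the miR-222 row are listed as different between these libraries in the authors' deposit.

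**Figure D4:**
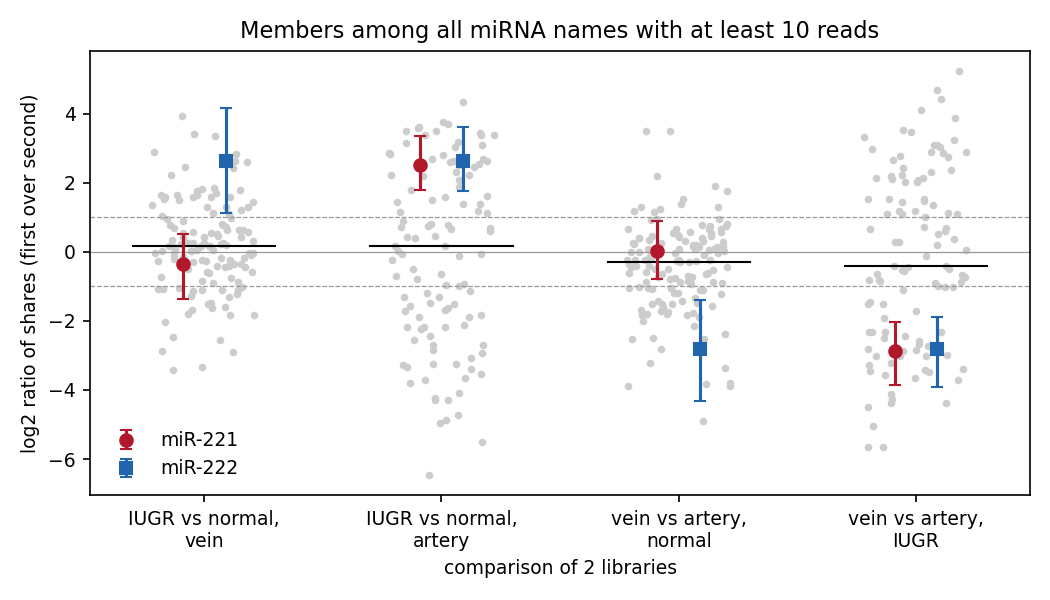
Log2 ratio of the share of reads outside PC- rows in the 4 comparisons of 2 libraries, first over second; grey points are all miRNA names with at least 10 summed reads, black lines their medians, and dashed lines mark 2-fold. Bars on miR-221 (circles) and miR-222 (squares) are conditional exact 95% intervals covering counting error only. miR-222 lies past 2-fold in each comparison, and miR-221 lies within 2-fold for IUGR against normal in vein and for vein against artery in normal piglets.

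The same 4 libraries, set vein against artery, give the same values from another side and are not independent of the comparisons above. In normal piglets miR-221 had nearly equal shares, 0.215% in vein and 0.213% in artery, a log2 ratio of 0.018 with an interval of -0.77 to 0.90. miR-222 was 7.04-fold lower in vein, a log2 ratio of -2.82 with an interval of -4.31 to -1.40. Of 137 names, 31.4% were lower in vein by 2-fold or more and 8.76% higher, the median was -0.30, and 7 names had a lower ratio than miR-222. The authors' deposited table lists the miR-222 row as different between these libraries and does not list miR-221.

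In IUGR piglets both members were lower in vein than in artery. miR-221 was 7.32-fold lower, a log2 ratio of -2.87 with an interval of -3.86 to -2.03, and miR-222 7.04-fold lower, a log2 ratio of -2.82 with an interval of -3.91 to -1.89. Here 37.3% of 110 names were lower in vein by 2-fold or more and 39.1% higher, and the median was -0.41. Again the authors' deposit lists the miR-221 3p row and the miR-222 row as different.

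The labels give 2 libraries for each vessel, which allows 1 test across libraries. With edgeR's quasi-likelihood test over all 4 libraries, 0 of 163 names differed between vein and artery at a Benjamini-Hochberg adjusted p of 0.05, a share called of 0.0%. An unadjusted edgeR p under 0.05 was reached by 8 names. The DESeq2 test called 4 names, and neither member was among them. Its adjusted p was 0.242 for miR-221 and 0.076 for miR-222. For miR-221 the log2 difference, vein minus artery, was -2.22 with a standard error of 1.37 and an edgeR adjusted p of 0.575. For miR-222 it was -3.31 with a standard error of 1.62 and an edgeR adjusted p of 0.522. Without IUGR artery the differences were 0.16 for miR-221 and -0.94 for miR-222, so their size in the full fit rests on that library. The spread between the 2 libraries of a vessel here includes the difference between IUGR and normal.

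Other miRNAs of vessels and blood were read from fixed lists. miR-126, the endothelial miRNA that supports vessel integrity and VEGF signalling, had 232, 120, 61 and 299 reads. Its shares were 0.657, 1.67, 0.810 and 2.43%, higher in both IUGR libraries and above both members in all 4. Set per miR-126 read rather than per read, the log2 ratio of IUGR to normal in vein was -1.71 for miR-221 and 1.27 for miR-222. In artery it was 0.95 and 1.04. miR-126 itself was higher in IUGR than in normal artery, with a log2 ratio of 1.58.

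Of 26 vascular and angiogenic miRNAs on the list, 21 had at least 10 reads in the vein libraries, and 7 were at least 2-fold higher and 0 lower in IUGR vein. Over all names the shares were 25.0% higher and 19.7% lower. The list's median log2 ratio was 0.43, beside 0.18 for all names. In artery 6 of 20 were higher and 9 lower in IUGR, beside 39.3 and 38.4% of all names, with a median of -0.71 beside 0.18. These counts are a description, and nothing particular to the list is read from them. Between the vessels of normal piglets 3 of 21 were higher and 4 lower in vein, beside 8.76 and 31.4% of all names, with a median of -0.41 beside -0.30. In IUGR piglets 8 of 19 were higher and 4 lower in vein, beside 39.1 and 37.3% of all names, with a median of 0.52 beside -0.41. By reads summed over the 4 libraries the first of the list was miR-143, a smooth muscle miRNA that favours the contractile state, with shares of 1.36, 4.06, 1.20 and 1.88%. It led the list in the vein libraries, while miR-125b was above it in normal artery, at 1.63%, and miR-100 and miR-126 in IUGR artery, at 2.53 and 2.43%.

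The marker lists of other cells differed between the libraries as well. Smooth muscle and mesenchymal miRNAs took 1.94, 5.26, 2.02 and 3.68%. At least 2-fold higher in IUGR were miR-143 and miR-199a of 4 in vein, beside 25.0% of all names, and miR-145 and miR-199a of 4 in artery, beside 39.3%. miR-214 stood at 0.252% in normal and 0.130% in IUGR artery. miR-199a, a mesenchymal miRNA, had shares of 0.135, 0.637, 0.496 and 1.30%. Red-cell miRNAs took 44.8, 49.3, 40.2 and 9.91%. All 3 with enough reads were at least 2-fold lower in IUGR than in normal artery, beside 38.4% of all names. In vein 0 of 4 were higher and 1 was lower in IUGR by 2-fold or more, beside 25.0 and 19.7% of all names. miR-486, a red-cell and muscle miRNA, had shares of 7.67, 4.29, 4.58 and 0.454%.

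Platelet and myeloid miRNAs took 6.61, 4.49, 5.58 and 1.96%. By reads summed over the libraries the first 2 were miR-191, at 3.26, 1.17, 1.12 and 0.105%, and miR-21, at 1.17, 1.99, 2.44 and 0.690%. miR-223 stood at 1.46, 0.697, 1.10 and 0.130%. miR-142 stood at 0.722, 0.627, 0.917 and 1.04% and was the highest of the list in IUGR artery. Lymphoid miRNAs took 0.844, 0.237, 0.465 and 0.130%. Among them the lymphocyte miRNA miR-150 had 148, 14, 12 and 12 reads, and miR-342 had 149, 3, 23 and 0. Liver miRNAs took 0.176, 2.33, 2.32 and 28.6%. All 4 names with enough reads were at least 2-fold higher in IUGR than in normal artery, beside 39.3% of all names. Among them were miR-194a and miR-194b, which split the same reads. The liver list, like miR-222, was lowest in normal vein, near equal in IUGR vein and normal artery, and highest in IUGR artery. miR-192, a liver and gut miRNA, had shares of 0.0311, 0.335, 0.292 and 3.94%. The part of these cell types in the values of miR-221 and miR-222 was not tested.

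The names with the most similar profile over the 4 libraries were taken by the root mean square difference of centred log2 shares among 127 names with at least 20 reads. For miR-221 they were miR-22 at 0.265, miR-148b at 0.289, miR-20b at 0.330, miR-455 at 0.477 and miR-100 at 0.543. miR-22 had shares of 0.629, 0.780, 0.850 and 3.93%, highest in IUGR artery. For miR-222 they were let-7a at 0.350, miR-338 at 0.432, miR-26a at 0.442, miR-200b at 0.451 and miR-210 at 0.457. let-7a had shares of 0.0981, 0.310, 0.560 and 3.39% and miR-26a 0.221, 0.669, 0.877 and 4.39%, lowest in normal vein like miR-222. miR-210, the miRNA induced by low oxygen, had 0.0255, 0.0697, 0.133 and 0.568%. miR-20b and miR-338 had 0 reads in IUGR vein and were set there at 3 counts. miR-20b, miR-455, miR-200b and miR-338 reached 20 reads only through IUGR artery. miR-200b and miR-338 had 0 to 3 reads in each other library, so their likeness to miR-222 is largely set by the filter and the floor.

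No name appeared in both sets of 5. Sets this small out of 127 names would seldom share a name in any case, so nothing is read from this. The members themselves differed by 1.26 in this measure, which placed miR-222 at position 45 from miR-221 and miR-221 at position 37 from miR-222. With 4 libraries these positions are a description of the libraries.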

How the data were processed

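Small RNA was sequenced as single reads of 36 bases from TruSeq small RNA libraries, per the labels' protocols. Per the submitters' processing notes the build was Sscrofa 10.2. Aligner and counter were not given in the sources used here. Raw values are estimated counts, as the file headers say and the deposited numbers show, since reads shared by rows appear as fractions. The authors' normalized values are a signal: the raw value times 1 factor per library, 1.90 and 4.70 for the vein (normal, IUGR) and 5.89 and 3.18 for the artery. The sources do not say how the factors were set. They were read from 2 of the tables, and the 4 normalized columns of the other tables were not used.

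The labels give vessel and number. Condition was read from the column letters N and I, and vessel from J and D with the table names. Which numbered sample a column is was not shown. Rows of the 4 tables were matched on both name and sequence, which gave 664, and a row absent from a table counted as 0. Rows were summed over arms and end variants into miRNA names, with 83 PC- rows kept apart.

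Ratios of shares carry Clopper-Pearson intervals on rounded reads (scipy 1.17.1), and a library at 0 was set at 3 counts. Names needed 10 summed reads. Vein and artery were compared with edgeR 4.0.16 (quasi-likelihood, TMM, R 4.3.3) on rounded counts, without condition as a block. Its standard error is the log2 difference over the root of F. DESeq2 1.42.0, other scalings, filters and left-out libraries were alternatives. Both steps were run on simulated data. These held counting error alone for the intervals and, for edgeR, a common dispersion with no difference of condition inside a vessel. They do not show how either step performs on the present libraries. By the column letters, the libraries of a vessel were 1 normal and 1 IUGR pool and not replicates of 1 condition, though the labels do not state this. The p-values therefore measure the spread between these libraries, the difference of condition included.

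The members and lists were chosen with earlier results of these data known. Named beside the members were the 5 nearest profiles of each and the leading members of each list.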

Additional observations from a re-analysis of the deposited data

Results flagged for a closer look

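The log2 ratio of miR-221, IUGR to normal, was -0.36 in vein and 2.53 in artery, values of opposite sign. Their counting intervals, -1.38 to 0.52 and 1.78 to 3.37, did not overlap. The interval in vein includes 0, so no direction is established there. The difference was not tested, since there was 1 library for each condition in each vessel.

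The log2 ratio of miR-221, vein to artery, was 0.018 in normal piglets, with an interval of -0.77 to 0.90 that includes 0, and -2.87 in IUGR piglets. These are the same 4 libraries read another way, and this difference was not tested either.

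The rows named after platypus miR-222a lay outside the members and had more reads in IUGR artery than in normal artery. The miR-222a-5p row had 4 reads against 0.5, and the longer miR-222a-3p row 0.5 against 0. Such counts are too few for a difference to be read from them. The miR-222a-3p row holds the whole sequence of the miR-222 row within it.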

How the results depend on the processing

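Of 52 alternative values of the 8 log2 ratios, 49 stayed inside the counting interval and 51 kept their sign, the exception being miR-221 between the vessels of normal piglets. miR-222 stayed past 2-fold in its direction in 28 of 28. Some of these could not differ: miR-222 has 1 row, so its most abundant row alone gives the main value. The comparisons also reuse the same 4 libraries. The values outside the counting interval, chosen after seeing the data, were per miR-126 read: -1.71 for miR-221 in vein, 0.95 for miR-221 in artery and 1.04 for miR-222 in artery. All 12 alternative values of the pair share stayed inside their interval, but this was largely fixed in advance. Leaving out the opposite arm of miR-221 and taking the most abundant row alone gave the same value in each library. IUGR vein stayed at 54.55% in every setting, and the added miR-222a rows held few reads. The count is therefore no sign of stability.

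Scaling moved the median of all names. With PC- rows counted, 10 names were higher and 54 lower in IUGR vein, rather than 33 and 26, with a median of -0.79. In normal vein against artery it gave 35 and 23, rather than 12 and 43. In IUGR vein against artery it gave 34 and 52, rather than 43 and 41. Median-ratio size factors gave 18 and 39 in vein, the authors' values 10 and 58, and leaving out miR-451 36 and 18. Per miR-126 read, 24 were higher and 60 lower in IUGR artery, rather than 44 and 43. The members' distance from the median is fixed by construction under 1 factor per library and is no sign of stability.

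With no filter, and with at least 30 reads, 160 and 20 names were past 2-fold higher in IUGR vein. In IUGR artery 92 and 25 were lower, and in normal vein 175 and 26 were lower than in artery. In IUGR vein 79 and 24 were higher than in artery. Names absent from a library were set there at 3 counts, or 0.0418% in IUGR vein and 0.0085% in normal vein. Without a filter, a name with few reads in normal vein and absent from IUGR vein is thus scored higher in IUGR vein. The unfiltered counts include names past 2-fold through this floor and the depth of the libraries, so no difference is read from them.

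Between the vessels DESeq2 called 4 names and edgeR 0 in every setting run. With condition (column letter N or I) as a replicate block, the log2 difference was -1.48 for miR-221 and -2.89 for miR-222, with edgeR adjusted p of 0.752 and 0.416, and 0 names were called. Libraries of the same condition letter deviated together from their vessel's mean, with a correlation of 0.49 across 163 names, and no label ties a vein library to an artery library beyond that letter. Leaving out 1 library each gave -3.05 to 0.16 for miR-221, reversed without IUGR artery, and -4.30 to -0.94 for miR-222. A vessel left with 1 library was assumed to vary like the other. The 8 to 12 reads of miR-222 in 3 libraries limit its precision.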
